A study of Mus musculus with 17 samples.

Results

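The matrix metalloproteinases (MMPs) and tissue inhibitors of metalloproteinases (TIMPs) were followed as 10 fixed genes, Mmp2, Mmp3, Mmp9, Mmp12, Mmp13, Mmp14, Mmp19, Timp1, Timp2 and Timp3, out of 30406 genes listed in all 17 single-cell libraries. They are a list of names, and no threshold on a measured value defines it. MMPs are zinc-dependent enzymes that are made as inactive precursors and cut collagens, elastin, proteoglycans and other proteins outside the cell. TIMPs bind the active enzymes and block them, so the balance between both families sets how quickly matrix is removed. In fibrotic skin and kidney this balance is studied because matrix accumulates when synthesis outpaces removal.

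The study traced cells of the PDGFRβ lineage in mice that carried PDGFRb-Cre and the Z/EG reporter, in which cells that have ever driven Cre from the Pdgfrb promoter make GFP. All groups shared both alleles and were 8 weeks old, and SARATg mice also carried human ZFYVE9, which encodes SARA (Smad anchor for receptor activation), behind a CAG promoter and a stop cassette that Cre removes, whereas SARAWT mice did not. The Pdgfrb promoter is also active in leukocytes during development, so the lineage holds inflammatory cells. Skin was taken after subcutaneous injections of PBS (3 SARAWT libraries and 1 SARATg library) or of bleomycin at 20 mg/kg, 3 times a week for 2 weeks by the labels, whereas the study's methods give daily injections (3 SARAWT and 1 SARATg). Kidney was taken after vehicle (3 SARAWT and 2 SARATg) or aristolochic acid (AA), a plant toxin that damages the proximal tubule, given into the peritoneum at 5 mg/kg, 3 times a week for 3 weeks (3 SARAWT and 1 SARATg). Tissue was digested with Liberase, GFP+ cells were sorted and droplet libraries that count unique molecular identifiers (UMIs) at transcript 3′ ends were made. The labels do not say how many animals went into a library, so each library was 1 sample and p-values measure the spread between libraries.

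The 8 skin libraries held 3355217 to 69765525 UMIs and 30085 kept cells, and the 9 kidney libraries 28660151 to 137093834 UMIs and 61744 kept cells. Each cell was assigned to a type when it had UMIs of at least 3 of 8 markers of that type and at least 2 more than of any other type, and no MMP or TIMP gene was a marker. This gave a type to 63.8% of skin cells and 87.9% of kidney cells. The sort label was PDGFRb+GFP+, but Pdgfrb itself measured 7.08 to 59.6 CPM (UMIs of a gene per 1000000 UMIs) in skin and 0.219 to 3.44 CPM in kidney, where 57 stromal and 52 mural cells were found among 61744. The library labelled SARAWT PBS 2 in skin had 781 kept cells and shared 55.5% of its barcodes with other skin libraries, against 22.1% in SARAWT bleomycin 2, 17.6% in bleomycin 1, 7.38% in PBS 1 and 0.594% to 0.824% in the other 4. The sharing thus spans PBS and bleomycin, and whether it reflects shared cells or mixed reads was not tested. Mouse Zfyve9 measured 621 CPM in the library labelled SARAWT PBS 3, against 314 and 224 CPM in the SARATg skin libraries. The human ZFYVE9 entry, listed in 4 libraries, measured 845 and 190 CPM in those labelled SARAWT PBS 1 and 2 and 89.3 and 115 CPM in SARAWT bleomycin 1 and 2. In kidney, Zfyve9 measured 164 CPM in the library labelled SARAWT AA 1 and 20.6 CPM in that labelled SARATg AA 1, against 96.4 and 100.4 CPM in SARATg vehicle. These levels go against the labels, so every genotype below is that of the label. In skin, every SARAWT PBS library carried such a signal, above that of the bleomycin library of its number (Zfyve9 at 9.39 CPM in SARAWT bleomycin 3). Leaving out each library in turn keeps other such PBS libraries in the fit, so it cannot show how far this touches the contrasts with PBS. That was not tested otherwise, nor were the contrasts with vehicle beyond leaving out each library in turn.

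The members fell into separate cell types in skin. Stromal cells, defined by fibroblast markers such as Dcn, Lum and Pdgfra, carried the gelatinase Mmp2, which degrades denatured collagen and basement membrane, at 818 ± 424 CPM (SD, n = 8 libraries) and the stromelysin Mmp3, which cuts proteoglycans and activates other MMPs, at 452 ± 301 CPM. Of all UMIs in kept skin cells, stromal cells held 92.9% for Mmp2 and 98.1% for Mmp3. The membrane-anchored Mmp14, which cuts fibrillar collagen and activates the Mmp2 precursor, measured 541 ± 76.4 CPM in stromal cells, which held 71.2% of its UMIs. The smallest relative spread between libraries among the members of this type was that of Mmp14.

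The second gelatinase, Mmp9, was a neutrophil gene in these libraries, at 663 ± 246 CPM in the 7 skin libraries with at least 10 neutrophils, and neutrophils held 71.9% of its skin UMIs. The macrophage elastase Mmp12 measured 312 ± 200 CPM in macrophages, with 45.3% of its UMIs there and 49.5% in cells that took no type. Mmp19, a soluble MMP of broad specificity, measured 196 ± 96.4 CPM in macrophages (61.7% of its UMIs). The collagenase Mmp13, which cleaves fibrillar collagen, was low throughout, at 19.2 ± 9.06 CPM in macrophages and 7.36 ± 11.2 CPM in stromal cells.

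Among the inhibitors, Timp1, the inducible soluble inhibitor, measured 382 ± 340 CPM in stromal cells and 188 ± 140 CPM in Schwann cells. Timp2, which also takes part in Mmp2 activation at the cell surface, measured 1407 ± 722 CPM in stromal cells, 505 ± 123 CPM in Schwann cells and 476 ± 195 CPM in macrophages. Timp3, the inhibitor that binds to the matrix, was highest in mural cells, the pericytes and smooth muscle of vessel walls, at 1295 ± 511 CPM (n = 5), followed by endothelial cells at 971 ± 552 CPM and Schwann cells at 804 ± 613 CPM (n = 7 each). These neighbours in the order overlapped within 1 SD, and macrophages had 2.29 ± 2.197 CPM of Timp3.

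**Figure D1:**
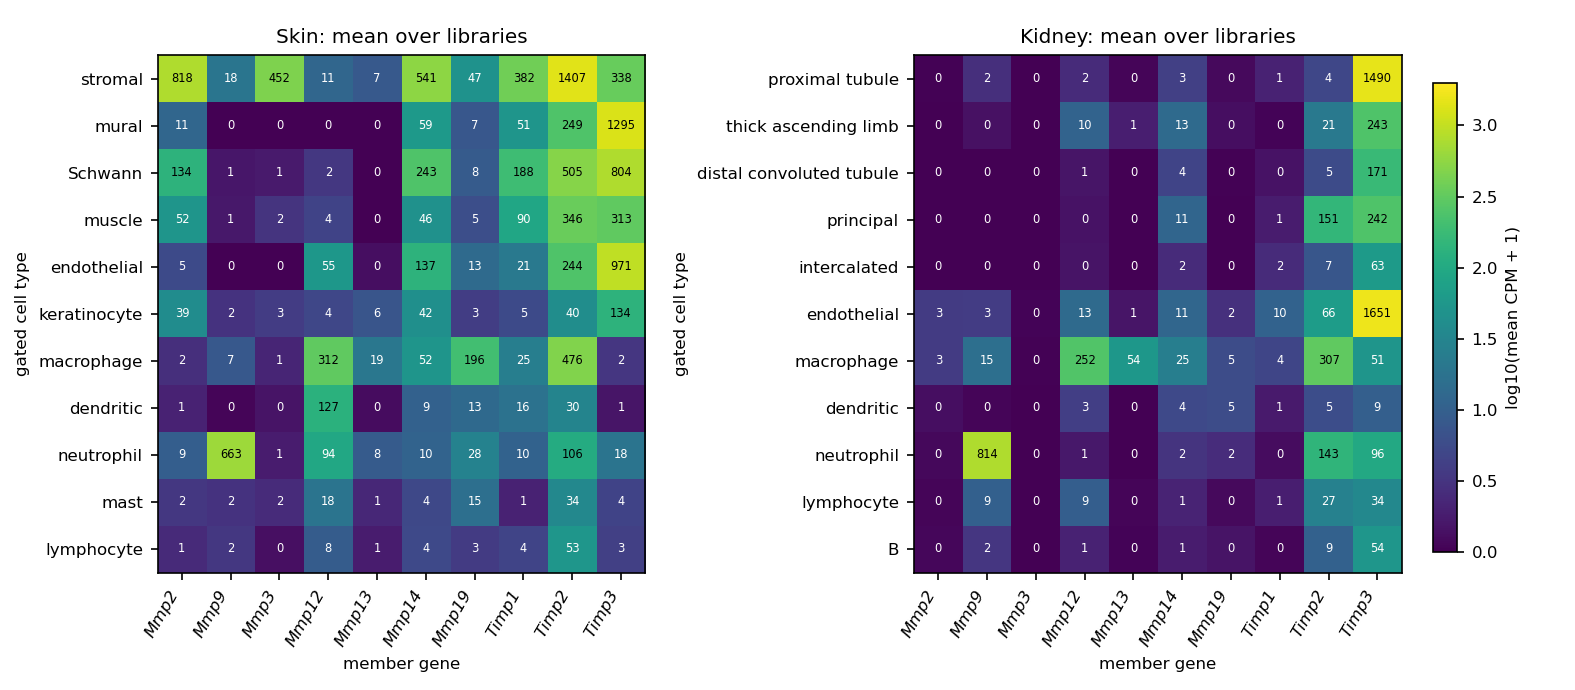
Mean CPM over libraries of the 10 genes (columns) in gated cell types (rows) of skin, left, and kidney, right, with colour as log10(mean CPM + 1) and the rounded mean printed in each cell. Mmp2, Mmp3 and Mmp14 stand out in skin stromal cells, Mmp9 in neutrophils of both tissues, Mmp12 in macrophages of both tissues and Timp3 in mural, endothelial and proximal tubule cells.

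Within libraries, stromal cells and macrophages of skin differed in 9 of the 10 genes (two-sided exact sign-flip permutation test over 8 libraries on log2(CPM + 1), adjusted over the 10 genes, smallest possible p 0.00781). Stromal cells were higher in 8 of 8 libraries for Mmp2 (log2 difference 8.10 ± 0.82 SD), Mmp3 (7.47 ± 1.02), Timp3 (6.61 ± 0.93), Timp1 (3.81 ± 1.61), Mmp14 (3.80 ± 1.32) and Timp2 (1.496 ± 0.74), each at an adjusted p of 0.00977. Macrophages were higher in 8 of 8 libraries for Mmp12 (-4.80 ± 1.49) and Mmp19 (-1.97 ± 0.75), and in 7 of 8 for Mmp13 (-2.24 ± 1.88, adjusted p = 0.0260). Mmp9 took both signs (1.02 ± 2.73, higher in stromal cells in 5 of 8 libraries, adjusted p = 0.328). Only the members were tested, so the 9 of 10 are not set against the share of all genes that differ between these types.

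Against mural cells, 5 libraries had at least 10 cells of both types, and the smallest p that the exact test allowed was 0.0625, so none of the 10 genes could pass. Timp3 was lower in stromal than in mural cells in 5 of 5 libraries (log2 difference -1.75 ± 0.51), and 8 of the other 9 genes were higher in stromal cells in 5 of 5, among them Mmp3 (8.38 ± 1.54) and Mmp14 (3.27 ± 0.64). Mmp3, Mmp9, Mmp12 and Mmp13 had no UMI in mural cells of these 5 libraries, which held 10 to 50 such cells. With so few cells, a gene at a few CPM can lack mural UMIs through depth, so the sign of the lowest genes says little.

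Free RNA in droplets gives UMIs to cells that do not make a transcript, so detection was compared with lymphocytes. Mmp3 was detected in 32.7% of skin stromal cells and 0.276% of lymphocytes, or 16.9% and 0.0375% after thinning each cell to 1000 UMIs. Mmp12 was detected in 19.0% of macrophages and 1.95% of lymphocytes (9.38% and 0.441% thinned). Mmp9 was detected in 69.9% of skin neutrophils and 0.949% of lymphocytes (45.5% and 0.254% thinned), and Timp3 in 94.0% of kidney proximal tubule cells and 6.98% of kidney lymphocytes (61.8% and 2.37% thinned). Median UMIs per cell ran, over libraries, from 1398 to 34904 in skin stromal cells, 5474 to 13138 in macrophages, 2364 to 3009 in neutrophils and 6131 to 8760 in lymphocytes, and in kidney from 7658 to 13144 in the proximal tubule and 2613 to 4951 in lymphocytes.

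In kidney, Mmp12 and Mmp9 were again highest in macrophages and neutrophils among types with several libraries, while Timp3 was a gene of tubule and vessel. Proximal tubule cells had 1490 ± 389 CPM of Timp3 (n = 9) and endothelial cells 1651 ± 345 CPM (n = 8), and the proximal tubule held 88.4% of all 483021 Timp3 UMIs. Kidney macrophages had 252 ± 99.9 CPM of Mmp12, 54.0 ± 59.2 CPM of Mmp13, 307 ± 72.2 CPM of Timp2 and 50.8 ± 29.9 CPM of Timp3. Their Mmp19 was at 4.86 ± 3.82 CPM, close to the 4.79 ± 6.97 CPM of dendritic cells. Neutrophils had 814 ± 273 CPM of Mmp9, whereas Mmp3 had 28 UMIs in the whole kidney set. Between proximal tubule and macrophages of the same library, 9 of 10 genes differed (same exact test, 9 libraries, smallest p 0.00391). Timp3 was higher in the tubule in 9 of 9 libraries (log2 difference 5.09 ± 0.96), and Mmp12 (-6.66 ± 1.09), Timp2 (-6.12 ± 0.57), Mmp13 (-4.64 ± 1.84) and Mmp14 (-2.54 ± 0.73) were higher in macrophages in 9 of 9, each at an adjusted p of 0.00558. Mmp3 did not pass (adjusted p = 0.250). Of those that did, Mmp2 (mean 0.0520 CPM in the tubule and 2.79 CPM in macrophages), Mmp19 (0.202 and 4.86 CPM) and Timp1 (1.07 and 3.95 CPM) were near the floor. Only the members were tested, so the count is not set against the share of all genes that differ between these types.

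Mmp13, Mmp12 and Mmp3 lie beside each other on chromosome 9 of GRCm38 (GENCODE vM21), within 183 kb that holds 4 protein-coding genes (Mmp13, Mmp12, Mmp1b and Mmp3) between positions 7272514 and 7455975. Mmp3 (ENSMUSG00000043613, 7445822 to 7455975, plus strand) was a stromal gene here and Mmp12 (ENSMUSG00000049723, 7344381 to 7369499, plus strand) a macrophage gene, whose end overlaps Mmp1b on the minus strand. Mmp13 (ENSMUSG00000050578, 7272514 to 7283331, plus strand) was a low macrophage gene. The 250 bases before their annotated starts are printed because these 3 windows, of 8 for the 7 matched members, held the AP-1 motif TGANTCA, the site of Fos and Jun proteins. Mmp12 has 2 windows, and the one at the gene's first start (7344147 to 7344396) held neither this motif nor TATAAA, so the match in Mmp12 is that of the downstream start alone. Sequences are from RefSeq (GRCm38.p6, plus strand), capitals mark the AP-1 motif and the TATA motif TATAAA, and the window of Mmp12 lies inside the annotated gene, before a downstream start, and overlaps no exon.
Mmp13, chr9:7272264-7272513: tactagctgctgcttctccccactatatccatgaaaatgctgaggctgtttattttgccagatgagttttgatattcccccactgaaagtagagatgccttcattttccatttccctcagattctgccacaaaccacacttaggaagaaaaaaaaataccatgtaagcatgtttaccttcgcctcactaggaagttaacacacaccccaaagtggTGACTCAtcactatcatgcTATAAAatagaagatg
Mmp12, chr9:7347124-7347373: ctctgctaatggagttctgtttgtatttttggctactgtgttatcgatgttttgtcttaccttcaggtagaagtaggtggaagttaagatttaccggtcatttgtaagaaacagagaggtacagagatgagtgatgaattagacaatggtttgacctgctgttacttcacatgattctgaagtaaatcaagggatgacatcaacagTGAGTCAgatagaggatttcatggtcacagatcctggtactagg
Mmp3, chr9:7445572-7445821: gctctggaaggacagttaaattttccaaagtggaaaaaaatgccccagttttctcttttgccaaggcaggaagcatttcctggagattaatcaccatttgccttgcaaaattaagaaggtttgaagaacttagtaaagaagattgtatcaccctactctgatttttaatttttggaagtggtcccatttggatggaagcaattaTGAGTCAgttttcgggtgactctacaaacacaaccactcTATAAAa
The AP-1 motif began 35 bases before the start in Mmp13, 44 before the downstream start of Mmp12 and 46 in Mmp3, and TATAAA began 16 bases before it in Mmp13 and 7 in Mmp3. Among 32817 windows of the same length, 6.75% held TGANTCA and 12.4% TATAAA on either strand. A match describes letters only.

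Windows of the other matched members held the GC box GGGCGG in 4 of 4 genes (Mmp14, Timp1, Timp2 and Timp3), against 32.7% of all windows, and neither TGANTCA nor TATAAA. Those of Mmp14 and Timp1, which both rose in Schwann cells (given further on), are printed with GGGCGG or its reverse complement CCGCCC in capitals (RefSeq, GRCm38.p6, plus strand, no exon overlapped).
Mmp14, chr14:54431348-54431597: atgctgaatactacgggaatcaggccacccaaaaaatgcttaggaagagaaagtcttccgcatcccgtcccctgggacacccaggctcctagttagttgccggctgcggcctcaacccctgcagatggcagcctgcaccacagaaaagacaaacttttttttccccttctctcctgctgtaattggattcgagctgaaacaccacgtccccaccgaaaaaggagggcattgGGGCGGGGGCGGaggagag
Timp1, chrX:20869916-20870165: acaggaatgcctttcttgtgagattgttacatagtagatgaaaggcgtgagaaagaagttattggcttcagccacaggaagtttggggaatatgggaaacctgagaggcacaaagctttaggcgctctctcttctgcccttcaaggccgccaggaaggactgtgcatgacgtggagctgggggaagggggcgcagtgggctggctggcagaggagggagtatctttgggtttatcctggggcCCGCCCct
Mmp14 (ENSMUSG00000000957) spans 54431612 to 54445364 on chromosome 14, plus strand. Timp1 (ENSMUSG00000001131, chromosome X, 20870166 to 20874735, plus strand) lies within Syn1 on the opposite strand, and Timp3 (ENSMUSG00000020044, chromosome 10, 86300372 to 86349506, plus strand) within Syn3 on the opposite strand. Timp2 (ENSMUSG00000017466, chromosome 11, 118301069 to 118355740, minus strand) shares part of its span with Cep295nl on the same strand, so the split of reads between these 2 genes is uncertain. Mmp2 (ENSMUSG00000031740, chromosome 8, 92827291 to 92853420) and Mmp9 (ENSMUSG00000017737, chromosome 2, 164940780 to 164955850) overlap no other gene, and Mmp19 (ENSMUSG00000025355, chromosome 10, 128790910 to 128800824) lies within the antisense gene Gm47093 and overlaps the end of Tmem198b on the minus strand.

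Bleomycin was then compared with PBS in SARAWT skin, type by type, on UMIs summed per library, and a member was called at an adjusted p under 0.05 over all genes of that fit (edgeR quasi-likelihood test, Benjamini-Hochberg). Fits with the replicate number as a block called members in stromal and endothelial cells and over all kept cells too (given further on). DESeq2, edgeR without the filter on low counts and some fits without a library also called members outside Schwann cells, the glia of peripheral nerve. In the first fit given for each type (edgeR, all libraries, that filter, no block or covariate), Schwann cells were the only type with members called. Mmp14 and Timp1 rose and Timp3 fell, 3 of the 5 members that passed the filter on low counts, where 7.89% of 7063 genes were called (3.48% higher and 4.4% lower). SARAWT PBS 2 had 6 Schwann cells and was not used, so 2 PBS libraries (25 and 39 cells) faced 3 bleomycin libraries (70, 25 and 145 cells).

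Mmp14 measured 173 and 129 CPM in Schwann cells of SARAWT PBS 1 and 3 and 288, 300 and 357 CPM after bleomycin (log2 fold change 1.21, SE 0.25, adjusted p = 0.0199). Timp1 measured 80.0 and 58.8 CPM with PBS and 413, 261 and 194 CPM after bleomycin (2.22, SE 0.39, adjusted p = 0.0128). Timp3 went the other way, from 2032 and 868 CPM to 396, 410 and 368 CPM (-1.74, SE 0.30, adjusted p = 0.0116). For all 3 genes the groups did not overlap, as for 51.3% of genes in this fit. The SARATg libraries, 1 per group and without a test, measured 74.9 CPM of Mmp14 with PBS (exact Poisson 95% interval 45.1 to 117, counting error only) and 382 CPM after bleomycin (354 to 411). Their Timp1 went from 27.6 (11.1 to 56.9) to 280 CPM (255.6 to 305) and their Timp3 from 1112 (986 to 1250) to 442 CPM (412 to 474).

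The remaining members of Schwann cells did not pass or were too low to test. Mmp2 measured 100.0 and 97.1 CPM with PBS and 137, 148 and 172 CPM after bleomycin, a difference that did not pass (log2 fold change 0.75, SE 0.25, adjusted p = 0.0882). Timp2 overlapped between groups, at 646 and 421 CPM against 402, 385 and 529 CPM (-0.13, SE 0.25, adjusted p = 0.777). Mmp3, Mmp9, Mmp12, Mmp13 and Mmp19 did not pass the filter.

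Other genes differed in level in the same cells. Schwann markers summed to 8415 to 14899 CPM with PBS and 2130 to 3461 CPM after bleomycin, with 7 of 8 lower in mean level, while Ncam1, an adhesion molecule of Schwann cells, went from 155 to 271 CPM. Stromal markers summed to 626 to 744 CPM with PBS and 1059 to 1698 CPM after bleomycin, with 4 of 8 higher. That sum was carried by Col6a1 (454 to 927 CPM) and Col6a2 (211 to 479 CPM), while Dcn (10.7 to 5.14 CPM), Lum (1.47 to 0 CPM) and Pdgfra (0 to 0.126 CPM) were near 0 and Clec3b had no UMI. Dissociation genes summed to 5176 to 5844 CPM with PBS and 2501 to 3913 CPM after bleomycin. The part of these shifts in the members' values was not tested. The folds kept their direction in all 15 settings (1.04 to 1.37 for Mmp14, 1.82 to 2.45 for Timp1 and -2.12 to -1.06 for Timp3), but the calls did not all hold. With barcodes shared between libraries left out, log2 fold changes were 1.24 for Mmp14, 1.85 for Timp1 and -1.21 for Timp3, at adjusted p = 0.132, 0.0935 and 0.240, and with the 5% of cells with the most UMIs left out the adjusted p was 0.126, 0.0748 and 0.190. Without SARAWT PBS 1 it was 0.0698, 0.0746 and 0.0602, and without PBS 3 it was 0.103, 0.0979 and 0.00612, fits that leave 1 PBS library, which is then assumed to vary like the bleomycin libraries. With the replicate block all 3 were called (1.26, 2.15 and -1.66, at 0.00341, 4.13e-07 and 1.984e-05, where 12.7% of genes were called). That fit rests on 2 pairs, since bleomycin 2 had no partner, and on a spread estimated over many genes. Mmp14 also missed without bleomycin 1 (0.0583) or 2 (0.0567) and Timp3 without bleomycin 2 (0.0555).

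**Figure D2:**
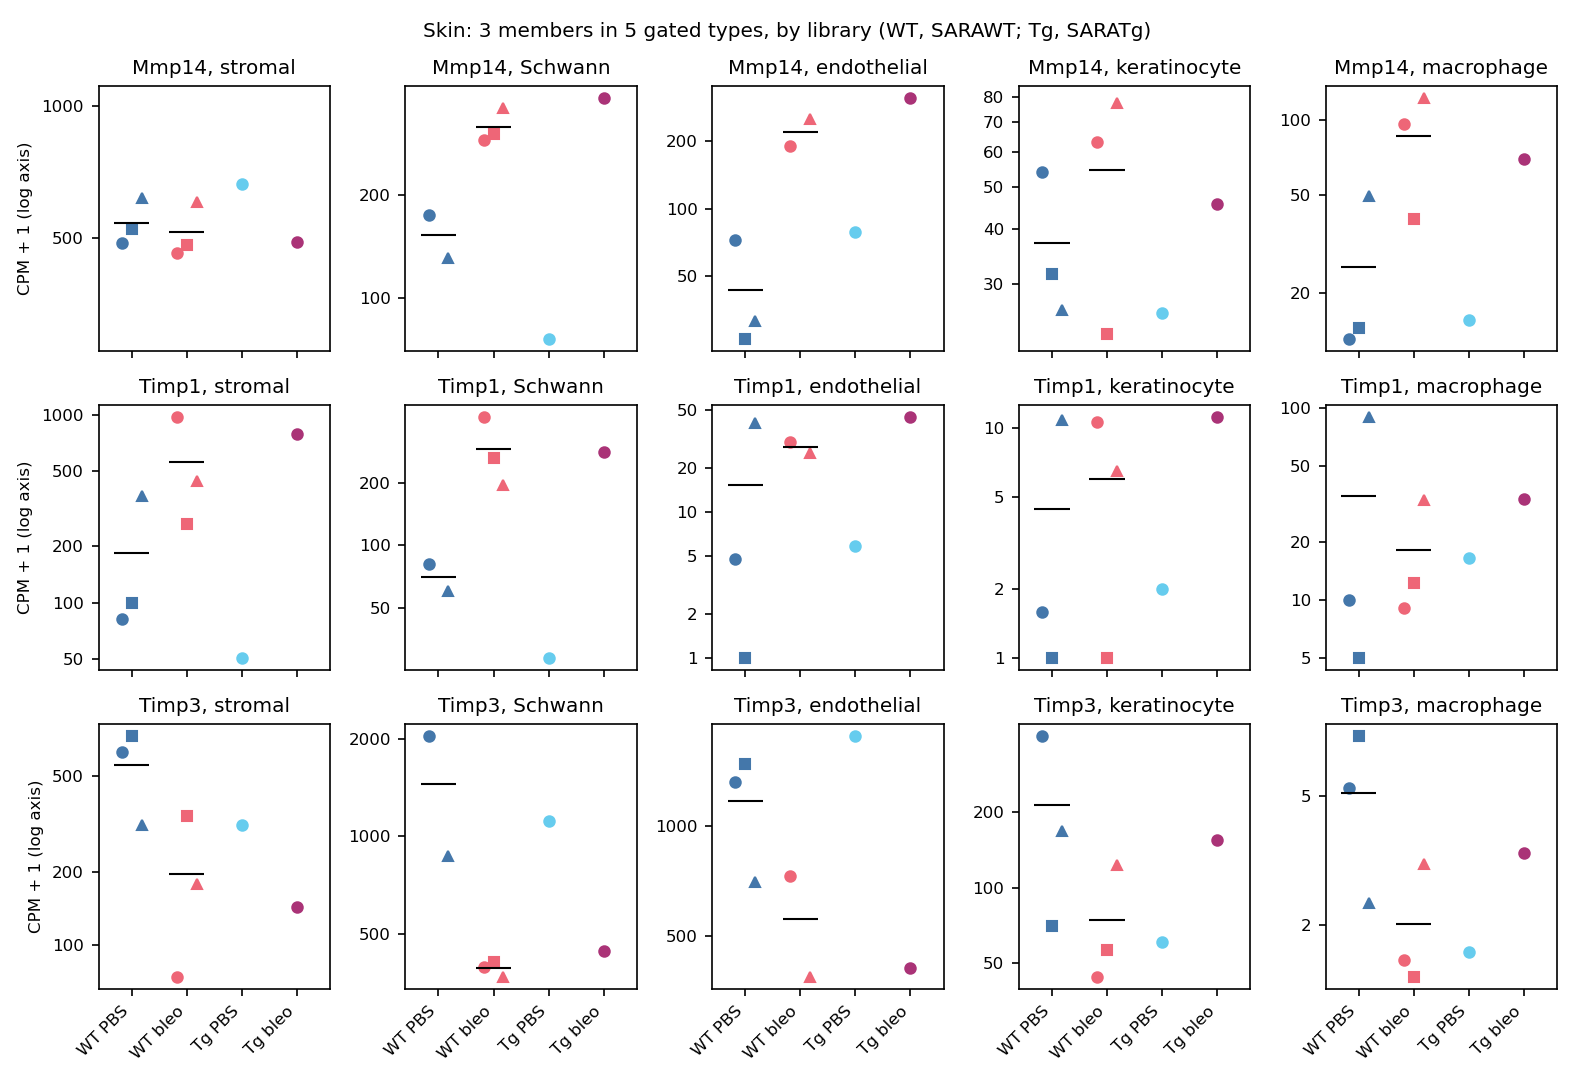
Mmp14, Timp1 and Timp3 (rows) in 5 gated types of skin (columns), as CPM + 1 on a log axis whose range differs between panels. Circles, squares and triangles are libraries 1, 2 and 3 of a group, black bars are group means, and libraries with under 10 cells of a type are left out. In Schwann cells the 3 SARAWT bleomycin libraries lie above both PBS libraries for Mmp14 and Timp1 and below them for Timp3.

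In stromal cells, which hold most Mmp2, Mmp3 and Mmp14, no member was called by edgeR with the filter on low counts and without pairing (0 of the 9 tested, with 0.0286% of 10505 genes called and 2241 genes at an unadjusted p under 0.05). DESeq2 called 2 members, and the share of all genes that it called is not given. Mmp9 measured 1.32, 4.0 and 3.24 CPM in SARAWT PBS libraries 1, 2 and 3 (12, 3 and 17 UMIs) and 76.3, 15.4 and 16.0 CPM after bleomycin. The groups did not overlap, as for 26.2% of genes, and the log2 fold change was 3.96 (SE 0.83, adjusted p = 0.0768). With the replicate number as a block it was 3.89 at an adjusted p of 0.0489, where 5.71% of genes were called, and DESeq2 gave 3.87 at 1.94e-05. Neutrophil markers in these stromal cells summed to 86.7 to 426 CPM with PBS and 24.7 to 68.3 CPM after bleomycin, with S100a8 at 26.7 and 3.37 CPM, S100a9 at 46.1 and 2.41 CPM and Ly6g at 0, and with 1 of 8 markers higher (Trem1, 3.22 and 5.14 CPM) and 6 lower. Dissociation genes summed to 7311 to 11350 CPM with PBS and 4724 to 7395 CPM after bleomycin (9 of 10 lower), and 7 of 8 stromal markers were lower. The part of these shifts in the members' values was not tested. The SARATg libraries had 0.480 CPM of Mmp9 with PBS (9 UMIs, interval 0.219 to 0.911) and 28.0 CPM after bleomycin (25.4 to 30.8).

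None of the 3 inhibitors passed in stromal cells with edgeR, the filter on low counts and no pairing. Timp2 measured 1170, 2305 and 1642 CPM with PBS and 744, 1204 and 860 CPM after bleomycin (log2 fold change -0.86, SE 0.31, adjusted p = 0.169, and -0.82 at 0.0464 with the replicate block). Timp3 measured 625, 725 and 310 CPM with PBS and 72.4, 338 and 176 CPM after bleomycin (-1.48, SE 0.51, adjusted p = 0.163, against 0.0303 with DESeq2). Timp1 measured 80.8, 98.7 and 369 CPM with PBS and 967, 262 and 441 CPM after bleomycin (1.58, SE 0.71, adjusted p = 0.245). Groups overlapped for all 3, while within pairs of the same number Timp1 was higher after bleomycin in 3 of 3 and Timp2 and Timp3 lower in 3 of 3. With the block Timp3 was at -1.63 (adjusted p = 0.0595). Without shared barcodes the changes of Timp2 and Timp3 were -0.48 and -0.80.

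The matrix-degrading enzymes of stromal cells showed no common direction. Mmp2 measured 489, 907 and 1217 CPM with PBS and 493, 1076 and 566 CPM after bleomycin (log2 fold change -0.31, SE 0.42), and Mmp3 77.5, 491 and 1028 CPM and 349, 512 and 341 CPM (-0.46, SE 0.74). Mmp14 stayed within 462 to 617 CPM in all 6 libraries (486, 524 and 617 CPM with PBS and 462, 481 and 603 CPM after bleomycin, log2 fold change -0.07, SE 0.22). Mmp19 measured 23.1, 40.0 and 83.3 CPM with PBS and 52.5, 49.1 and 44.5 CPM after bleomycin. Over the 9 members tested the median log2 fold change was -0.07, against -0.03 over all genes of the fit.

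SARATg stromal cells came from 1 library per group, so no test within genotype was made. Mmp2 was at 1502 CPM with PBS (interval 1485 to 1520) and 290 CPM after bleomycin (281 to 298). Mmp3 was at 664 (653 to 676) and 157 CPM (151 to 163), and Timp2 at 2617 (2594 to 2640) and 709 CPM (696 to 722). Timp1 was at 49.9 (46.7 to 53.2) and 791 CPM (777 to 805), and Timp3 at 313 and 142 CPM. The bleomycin effect was compared between genotypes in a fit of 4 groups, which assumes that a lone library varies like the others. By the edgeR model no member was called in stromal cells or macrophages (0% of all 13335 and 13007 genes), and the lowest unadjusted p was that of Mmp2 in stromal cells (difference in log2 fold change -2.49, SE 0.84, edgeR adjusted p = 0.496).

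**Figure D3:**
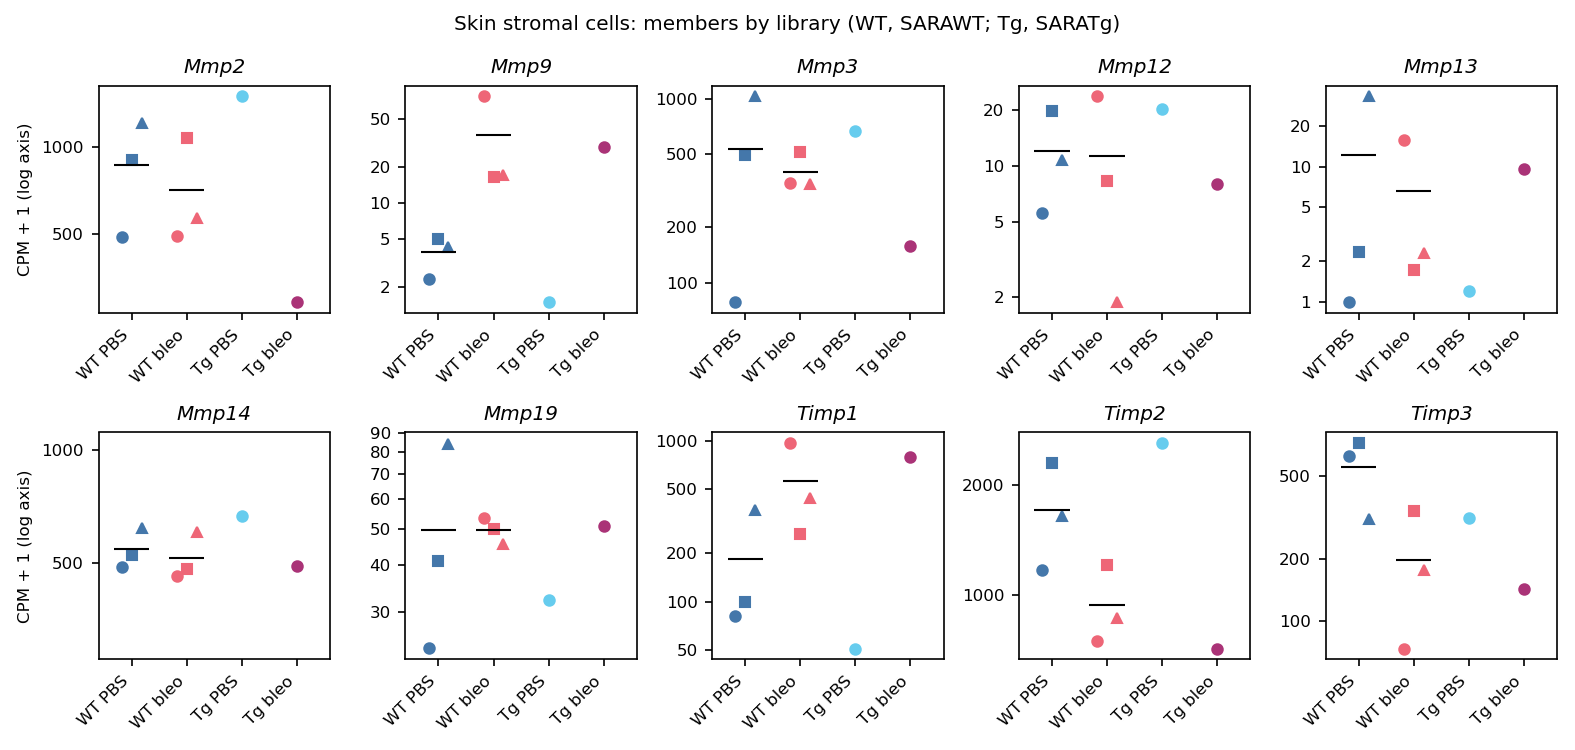
CPM + 1 on a log axis of members in skin stromal cells, by group and library, with axis ranges that differ between panels. Circles, squares and triangles are libraries 1, 2 and 3 and black bars group means. Mmp9 separates PBS from bleomycin in both genotypes, Mmp14 stays in a narrow range, and Mmp2 overlaps between the SARAWT groups.

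Other skin types gave members that passed under some fits only. In endothelial cells (3 PBS and 2 bleomycin libraries, 0.292% of 4799 genes called, 0.188% higher and 0.104% lower) Mmp14 measured 71.7, 25.2 and 30.6 CPM with PBS and 190 and 250 CPM in bleomycin 1 and 3, with no overlap (30.4% of genes). Its log2 fold change was 2.31 (SE 0.46, adjusted p = 0.0674), and 2.23 at an adjusted p of 2.75e-04 with the replicate block, where 5.04% of genes were called. The block fit rests on 2 pairs and on a spread estimated over many genes. Mural markers in these cells summed to 101 to 211 CPM with PBS and 416 to 481 CPM after bleomycin, of which Mcam, a gene that endothelial cells also express, went from 90.8 to 377 CPM while Rgs5 went from 34.4 to 0 CPM. Dissociation genes went from 12012 to 16038 CPM down to 4171 to 5354 CPM. The part of both in the result was not tested. Timp2 of endothelial cells (377, 113 and 369 CPM against 175 and 76.7 CPM) passed with the block only (-1.80, adjusted p = 0.00644), and Timp3 measured 1320, 1488 and 703 CPM against 729 and 383 CPM (-1.15, SE 0.40, adjusted p = 0.260).

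In macrophages no gene was called by edgeR on all libraries without pairing or covariate (0% of 11281, with 1266 at an unadjusted p under 0.05). DESeq2 called Mmp14 alone among the members, and the share of all genes that it called is not given. Mmp14 measured 12.1, 13.4 and 48.2 CPM with PBS and 95.6, 39.0 and 122 CPM after bleomycin, with an overlap through PBS 3 and bleomycin 2 but higher values in 3 of 3 pairs (log2 fold change 1.75, SE 0.64, adjusted p = 0.372). With the replicate block it was 2.10 (adjusted p = 0.0515). DESeq2 gave 1.79 at an adjusted p of 0.0456, and edgeR gave 2.98 at 0.0238 without the library labelled SARAWT PBS 3. That library carries 621 CPM of Zfyve9, while PBS 1 and 2, kept in that fit, carry 845 and 190 CPM of human ZFYVE9. Dissociation genes in macrophages summed to 8298 to 15883 CPM with PBS and 7295 to 8689 CPM after bleomycin, and their part was not tested. Mmp12 measured 126, 164 and 261 CPM with PBS and 152, 318 and 248 CPM after bleomycin (0.42, SE 0.38), Mmp19 94.9, 140 and 323 CPM and 108, 98.1 and 279 CPM (-0.17, SE 0.57), and Timp2 851, 685 and 301 CPM and 356, 462 and 299 CPM (-0.62, SE 0.34). Log2 fold changes of the other members tested were -1.31 for Mmp2, -2.15 for Mmp9, -0.14 for Mmp13, -1.06 for Timp1 and -1.57 for Timp3, and Mmp3 did not pass the filter. Mmp2 was at 0.43 with the looser gate. Stromal markers in these macrophages summed to 24.2 to 109 CPM with PBS and 15.1 to 25.0 CPM after bleomycin (8 of 8 lower), and their part in these values was not tested. In mast cells (0% of 2565 genes called) no member passed the filter.

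With edgeR and the filter on low counts, Mmp12 was not called in other leukocytes of skin (0% of 8647 genes in dendritic cells and 0% of 3171 in neutrophils). In dendritic cells it measured 65.7, 631 and 103 CPM with PBS and 20.9, 18.9 and 37.7 CPM after bleomycin, with no overlap (17.6% of genes, log2 fold change -3.15, SE 0.79, adjusted p = 0.397, and -1.64 without PBS 2). Of 15 settings, 1 called it, edgeR without the filter (adjusted p = 3.288e-07). In neutrophils, with no overlap either (19.4% of genes), it measured 0 and 3.46 CPM with PBS (0 and 4 UMIs) and 50.02, 46.0 and 18.3 CPM after bleomycin (14, 2 and 75 UMIs, 3.29, SE 1.23, adjusted p = 0.997, and 0.45 with the looser gate). Mmp9 of neutrophils measured 1169 and 433 CPM with PBS and 697, 483 and 607 CPM after bleomycin (-0.32, SE 0.44). In keratinocytes (0% of 6334 genes called) Mmp2 measured 36.8, 7.67 and 11.5 CPM against 52.6, 42.0 and 54.8 CPM (1.32, adjusted p = 0.434), and Timp3 401, 69.1 and 167 CPM against 43.0, 55.2 and 122 CPM (-1.44, adjusted p = 0.434, and 0.0015 without the filter on low counts, 1 of 16 settings that called it).

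In lymphocytes of skin, where 0.0103% of genes were called, Mmp12 and Timp2 were tested and not called. Over all kept skin cells, where the number of cells of a type and the level per cell cannot be told apart, Mmp2 measured 139, 217 and 134 CPM with PBS and 62.2, 74.9 and 39.1 CPM after bleomycin (log2 fold change -1.33, SE 0.30, adjusted p = 0.0894). Timp3 measured 229, 265 and 79.1 CPM and 45.9, 44.4 and 47.3 CPM (-1.88, SE 0.38, adjusted p = 0.0800). Neither passed with edgeR on all libraries, with the filter on low counts and no pairing or covariate (0% of 15335 genes, 2799 at an unadjusted p under 0.05). DESeq2 called both, and the share of all genes that it called is not given. With the replicate block Mmp2 was called (-1.35, adjusted p = 0.0304, 3.81% of genes) and Timp3 was not (adjusted p = 0.0589). Groups did not overlap for both, as for 23.7% of genes. Stromal cells, which hold most Mmp2, made up 15.3%, 15.5% and 7.42% of kept cells with PBS and 5.24%, 7.10% and 1.82% after bleomycin.

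**Figure D4:**
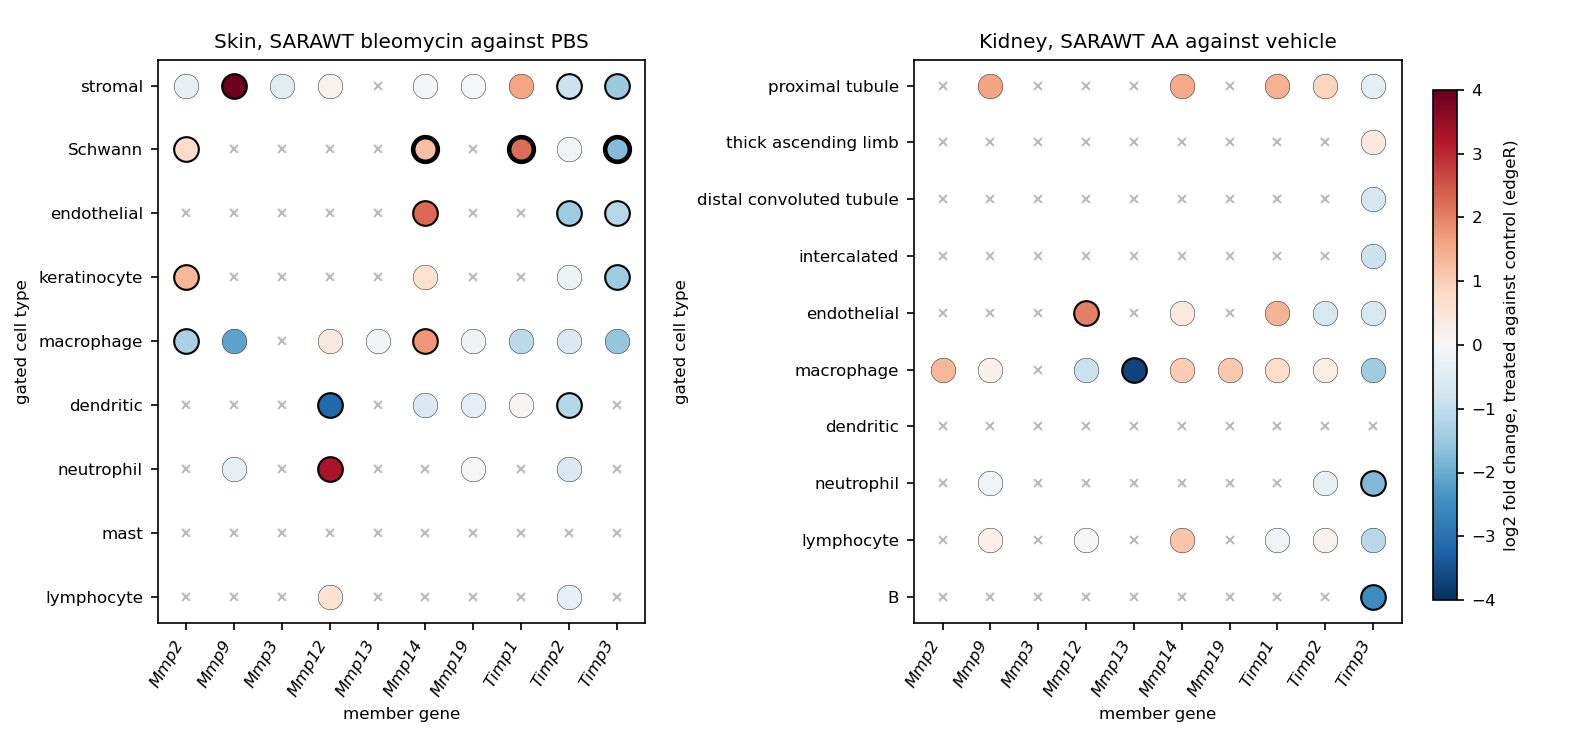
Log2 fold changes from edgeR without pairing for the 10 genes (columns) in gated types (rows), bleomycin against PBS in SARAWT skin, left, and AA against vehicle in SARAWT kidney, right, coloured from blue (lower with treatment) to red (higher). Thick outlines are adjusted p under 0.05, medium outlines unadjusted p under 0.05, and grey crosses genes that did not pass the filter on low counts. Thick outlines appear for Mmp14, Timp1 and Timp3 in Schwann cells and nowhere else.

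In SARAWT kidney no member was called after AA in any of the 10 types or over all kept cells. This holds for edgeR on all libraries, with the filter on low counts and no pairing. It includes intercalated cells, where 0.76% of genes were called (0.261% higher) and Timp3 was the member tested. Without the library vehicle 3, 6 members were called over all kept cells (Timp3 lower, and Mmp2, Mmp14, Mmp19, Timp1 and Timp2 higher). Over all kept cells, cell numbers of a type and level per cell cannot be told apart. Timp1 was also called in the proximal tubule, on 1 and 2 UMIs in vehicle 1 and 2 and 15, 5 and 10 with AA (20 in vehicle 3). The share of all genes called in these fits is not given, so the calls cannot be read as particular to the members. In macrophages (0% of 11421 genes called, 790 at an unadjusted p under 0.05) Mmp13 measured 102, 123 and 13.7 CPM with vehicle and 8.26, 4.93 and 3.79 CPM with AA, with no overlap (10.9% of genes). Its log2 fold change was -3.69 (SE 0.77, adjusted p = 0.709), and DESeq2 gave -3.73 at 8.65e-06. Vehicle 3 stood apart from vehicle 1 and 2: without it edgeR gave -4.19 at an adjusted p of 0.0119, and without vehicle 1 and 2, chosen after seeing the data, -1.36 at 0.995, with vehicle 3 as the lone control and assumed to vary like the AA libraries. Vehicle 1 and 2 were mostly proximal tubule (6735 and 7237 cells, against 794 in vehicle 3), and tubule markers in macrophages summed to 56.7 to 428 CPM with vehicle and 34.7 to 189 CPM with AA. Mmp13 in SARATg macrophages measured 160 CPM (interval 147 to 174) and 47.2 CPM (40.3 to 55.0) with vehicle and 22.8 CPM (20.6 to 25.3) with AA.

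The other macrophage members did not pass either. Mmp12 measured 403, 347 and 263 CPM with vehicle and 276, 43.9 and 229 CPM with AA (log2 fold change -0.88, SE 0.55). Mmp14 measured 12.9, 4.09 and 37.1 CPM with vehicle and 37.6, 37.3 and 47.2 CPM with AA, just without overlap (1.01, SE 0.64, adjusted p = 0.738, and 2.44 at 0.0357 without vehicle 3). Timp2 measured 186, 237 and 385 CPM with vehicle and 341, 325 and 351 CPM with AA (0.31, SE 0.31). Log2 fold changes of the other members tested were 1.31 for Mmp2, 0.19 for Mmp9, 1.09 for Mmp19, 0.77 for Timp1 and -1.42 for Timp3, and Mmp3 did not pass the filter.

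Timp3, the member with most UMIs in kidney, did not pass in any type with edgeR and the filter on low counts. In the proximal tubule (0% of 12157 genes called) it measured 1347, 2309 and 979 CPM with vehicle and 1028, 1590 and 1493 CPM with AA (log2 fold change -0.38, SE 0.36, adjusted p = 0.614). In endothelial cells (0% of 8046) it measured 1905, 1936 and 1726 CPM with vehicle and 1371 and 938 CPM with AA 1 and 2, without overlap (23.4% of genes, -0.67, SE 0.32, adjusted p = 0.999). In lymphocytes it measured 70.8, 68.0 and 13.2 CPM with vehicle and 4.94, 32.5 and 21.8 CPM with AA (-1.11, SE 0.78). Over all kept cells it was 1245, 1956 and 257 CPM with vehicle and 159, 616 and 214 CPM with AA, and tubule markers in lymphocytes summed to 40.1 to 297 CPM and 10.47 to 135 CPM. In neutrophils and B cells Timp3 had log2 fold changes of -1.77 and -2.52, at adjusted p = 0.9999 and 0.870, and without the filter on low counts both passed (0.0253 and 4.134e-04). With the stricter gate they were -0.25 and -1.005, and without vehicle 1 and 2, which leaves vehicle 3 as the lone control, -1.30 and 0.98. Tubule markers summed to 383 to 657 CPM with vehicle and 63.5 to 529 CPM with AA in neutrophils (7 of 8 lower) and to 17.8 to 544 CPM and 8.29 to 165 CPM in B cells (6 of 8 lower), and their part in these values was not tested. Mmp9 of neutrophils measured 627, 712 and 736 CPM with vehicle and 680, 961 and 445 CPM with AA (-0.15, SE 0.33). The difference in AA effect between genotypes did not pass for the 6 members tested in the proximal tubule or the 9 tested in macrophages (edgeR, 0% of 13809 and 11885 genes).

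**Figure D5:**
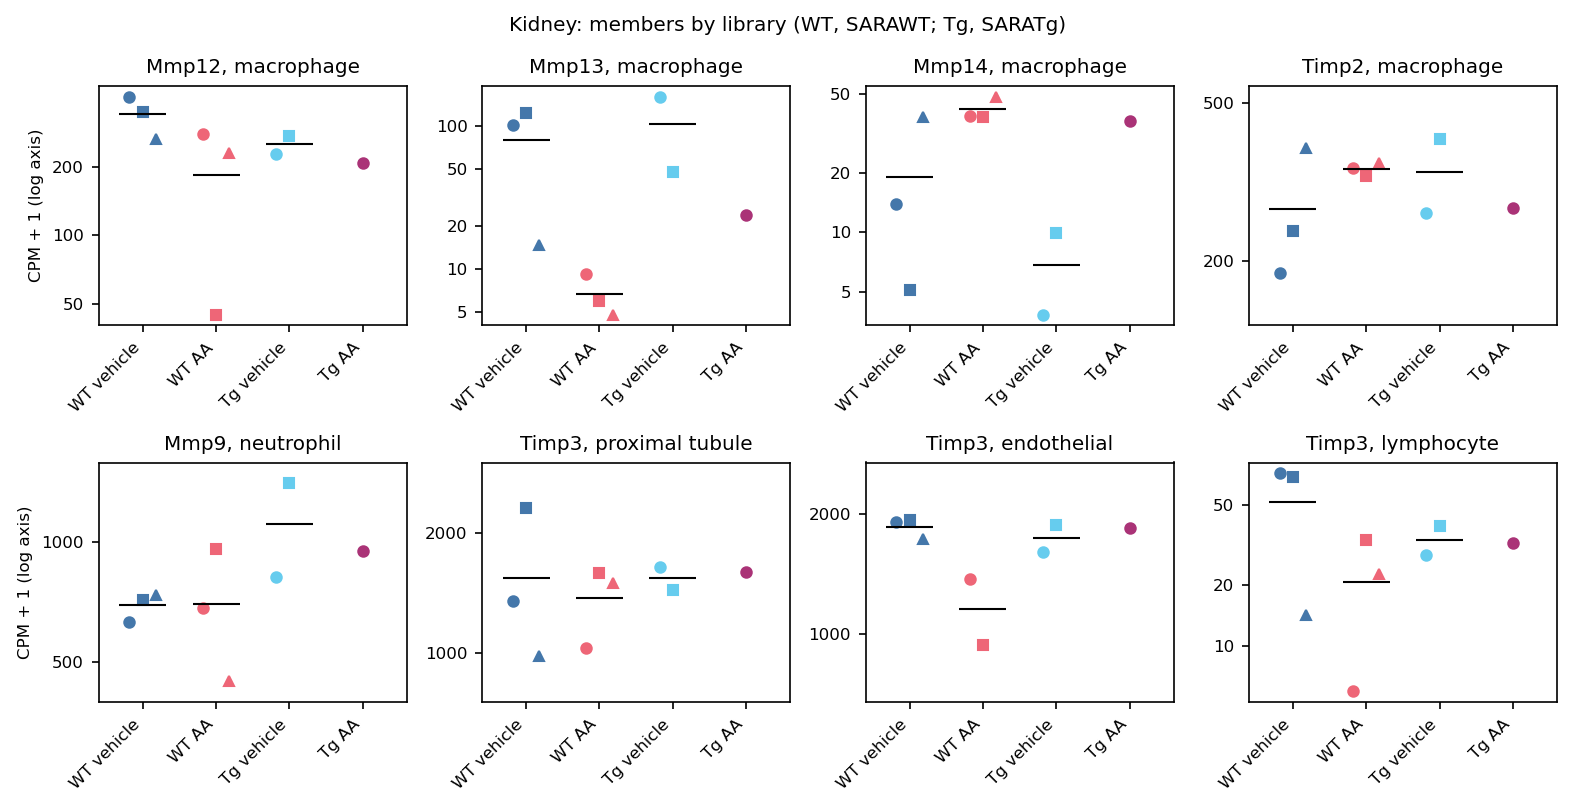
CPM + 1 on a log axis of members in kidney types, by group and library, with axis ranges that differ between panels. Circles, squares and triangles are libraries 1, 2 and 3 and black bars group means. Mmp13 in macrophages is lower in all 3 SARAWT AA libraries than in the 3 vehicle libraries, and Timp3 in the proximal tubule overlaps between groups.

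Other genes of the pathway were counted from lists. In Schwann cells 1 of 11 tested ADAM and ADAMTS proteases rose, Adam19 (log2 fold change 1.41, edgeR adjusted p = 0.0277), where 7.89% of all genes were called. None of the 4 tested other MMPs and none of the 5 tested cathepsins were called there, and 2 of 10 dissociation genes fell, Jun (-1.04) and Atf3 (-1.41). In stromal cells none of 5 other MMPs, 8 activators, 15 ADAM and ADAMTS proteases and 6 cathepsins were called. Skin macrophages and both kidney types likewise gave no call in these lists.

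Across 22 mean levels (11 skin and 11 kidney types), the genes most like each member in log2(CPM + 1) among 8536 were Thbs2 and Has2 for Mmp2 (r = 0.940 and 0.936), Lum and Mup17 for Mmp3 (0.967 and 0.964) and Fpr1 and Fpr2 for Mmp9 (0.928 and 0.927). They were Fcrls and Mrc1 for Mmp12 (0.949 and 0.931), Ccl8 and C3ar1 for Mmp13 (0.894 and 0.839), Slc39a1 and Timp1 for Mmp14 (0.903 and 0.872) and Phf23 and Tlcd2 for Mmp19 (0.862 and 0.845). Among the inhibitors they were Col3a1 and Col5a1 for Timp1 (0.911 and 0.905), Lrp1 and Ecm1 for Timp2 (0.851 and 0.833) and Igfbp7 and Parva for Timp3 (0.928 and 0.9098). Types of a tissue come from the same libraries, so these r describe likeness only.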

How the data were processed

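UMIs per gene and cell barcode were deposited as whole-number counts, which the authors made with Cell Ranger (3.0.2 and Seurat 2.3.4 per the submitters' notes, and Cell Ranger 4.0.0, 3.1.0 or 3.0.2 per the file headers) on mm10, with barcodes already called and no normalization. Libraries 1 and 2 of both SARAWT skin groups use a list of 32286 genes and the others 31053. Lists were joined by 30406 Ensembl identifiers, of which 597 differ in symbol. Cells were kept with 200 or more genes and a mitochondrial share of UMIs up to 20%. No doublet caller was run, and cells with markers of several types (3732 in skin, 2760 in kidney) took no type.

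UMIs were summed per library and type (at least 10 cells) and compared in R 4.3.3 (limma 3.58.1) by the two-sided quasi-likelihood test of edgeR 4.0.16 after TMM scaling and its filterByExpr filter, with DESeq2 1.42.0 as an alternative and Benjamini-Hochberg over all genes of a fit. CPM are per 1000000 UMIs of the 30406 shared genes. Exact permutation tests used scipy 1.17.1, and tables and plots Python 3.11.15, numpy 2.4.6, pandas 2.3.3 and matplotlib 3.10.9. Fits were tested on simulated data. The first fit given for each type took no pairing, and fits with the replicate number as a block were alternatives. Deviations of same-numbered SARAWT skin libraries had a positive r in each of 3 pairs in stromal cells (0.218 to 0.341) and macrophages (0.246 to 0.517). The same held over all kept cells (0.129 to 0.527), in dendritic cells (0.0635 to 0.442) and in keratinocytes (0.00733 to 0.331). Same-numbered SARAWT skin libraries also share the gene list and sex, with libraries 1 and 2 high in Xist and library 3, like both SARATg skin libraries, high in the Y-linked Ddx3y. In kidney, SARAWT vehicle 2 and SARATg AA 1 were high in Xist and the other 7 in Ddx3y, so that sex and AA cannot be told apart in SARATg kidney. No fit had sex itself as a term, but in skin the gene list splits the libraries as sex does. Skin fits with the gene list as a covariate, among them the fit between genotypes, or with the replicate block thus also took up sex. Schwann and endothelial cells had 2 pairs each, and the block was run there too. In these fits the library without a partner adds nothing to the contrast. Kidney numbers did not pair (-0.379 to 0.417). Intervals of single libraries are exact Poisson 95% and cover counting error only. The naming rule took all 10 members in every comparison, list genes past the threshold and the 2 most alike genes. In smaller types, the proximal tubule and the bleomycin contrast of stromal cells (without Mmp12 and Mmp13), values are printed for part of the members. Some genes of these lists are not reported here. Members and lists were chosen with earlier results of these data known.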

Additional observations from a re-analysis of the deposited data

Results flagged for a closer look

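Listed here are results in which every SARAWT library moved one way with treatment and the SARATg libraries the other way, in skin types where the difference between genotypes was not tested. Values are log2(mean CPM + 1), treated minus control. Mmp19 in Schwann cells stood at -2.33 in SARATg (23.7 to 3.91 CPM, 6 and 7 UMIs) against 3.35 in SARAWT (0 and 0 CPM with PBS, 4.40, 7.69 and 15.5 CPM after bleomycin). Mmp12 in neutrophils stood at -3.57 in SARATg (500.03 to 41.3 CPM) against 3.84 in SARAWT (0 and 3.46 CPM, then 50.02, 46.0 and 18.3 CPM). The 500.03 CPM was the highest of 7 skin libraries (median 41.3 CPM), and whether a few cells carried it was not tested. Timp3 in mast cells stood at 2.37 in SARATg (0 to 4.18 CPM, 0 and 1 UMI) against -3.53 in SARAWT (7.73 and 13.3 CPM, then 0 in all 3). Timp2 in neutrophils stood at 0.10 in SARATg (128 to 137 CPM, 12 and 285 UMIs, exact Poisson intervals 65.97 to 223 and 122 to 154) against -0.71 in SARAWT (126 and 123 CPM, then 107, 46.0 and 73.6 CPM). Each SARATg group is 1 library, and in the last 2 results the intervals of its libraries overlap.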

How the results depend on the processing

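Of 137 alternative counts of members called, 113 stayed within 1.5 times the reported one, where a reported 0 that stayed at 0 is included. DESeq2 called 2 members in stromal cells, 2 over all kept skin cells, 1 in skin macrophages and 1 in kidney macrophages, in place of 0 each. Without the filter on low counts the counts were 2 in stromal cells, 2 over all kept skin cells, 10 in other skin types in place of 3, and 3 in other kidney types in place of 0. With the replicate block they were 2 in stromal cells, 1 over all kept skin cells, 5 in other skin types and 2 in other kidney types. The gene list as a covariate gave 2 over all kept skin cells and 1 in skin macrophages. In other skin types, leaving out the cells with the most UMIs gave 1 and leaving out shared barcodes, added after seeing the data, gave 0. With each library left out in turn, counts ranged from 0 to 3 in other skin types, 0 to 2 over all kept skin cells, 0 to 1 in skin macrophages, 0 to 6 over all kept kidney cells, 0 to 2 in kidney macrophages and 0 to 1 in the proximal tubule, and stayed at 0 in stromal cells, other kidney types and the tests between genotypes. All upper values but that of other skin types came without skin SARAWT PBS 3 or kidney SARAWT vehicle 3. Counts in this section are given without the share of all genes called in the same fit. Whether members were called more often than other genes was not tested.

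Of 327 alternatives for 24 single values, 277 kept direction and side of the threshold, 32 passed it, 14 lost it and 4 turned. The 24 values are those with an unadjusted p under 0.05 in the edgeR fit as reported. Among them only Mmp14, Timp1 and Timp3 of Schwann cells were called, and the others kept their side by staying uncalled. The looser gate turned Mmp2 in skin macrophages (0.43) and Mmp12 in kidney endothelial cells (-0.10), the latter also without SARAWT AA 1 (-5.83, against 2.502 without AA 2), and Timp3 in kidney B cells turned without vehicle 1 and 2 (0.98). The last 3 fits have 1 library in an arm, assumed to vary like the others. Mmp12 of kidney endothelial cells, not called in the reported fit but called in 2 of 11 settings, had log2 fold changes from -5.83 to 2.64 over these settings. The causes were not tested. The counts between cell types (9, 9 and 0) did not move, where the 0 is that of stromal against mural cells, a test that could not pass. Cell Ranger version was not run as a covariate in kidney, where all libraries have 3.0.2. Types with few cells in a library, such as Schwann cells, have limited depth.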
